A study of Mus musculus with 3 samples.

Results

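The tumour suppressor p53, its negative regulator Mdm2, the p53 targets Ccng1 and Bax, and 6 inhibitors of cyclin-dependent kinases (CDKs) were followed. They were read in mouse fibroblasts and in a cell line labelled as embryonic stem cells. The 10 genes were Trp53, Mdm2, Ccng1, Bax, Cdkn1a, Cdkn1b, Cdkn2a, Cdkn2b, Cdkn2c and Cdkn2d, taken by symbol. All 10 of 10 were found among the 29267 genes of the tables, of which 17810 had a count in at least 1 library, and all 10 passed the filter on low counts. RNA-seq was available from mouse embryonic fibroblasts (MEFs) of 2 strains at passages 3 to 5, ICR and OG2, the latter with a transgene that reports Oct4 by GFP. The third library came from the embryonic stem cell (ESC) line R1, 1 line at passage 30 that is labelled naive. No treatment is given in the labels for any of the 3. MEFs are the cells from which reprogramming starts and ESCs the state it aims at, and the design asks how the transcriptomes of these cells differ. There was 1 library per strain or line, so that the 2 MEF libraries were the only pair of one cell type, and they also differed in strain.

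p53 is a transcription factor that is held at a low level by Mdm2, an E3 ubiquitin ligase that marks it for degradation and is itself a p53 target. When DNA is damaged or oncogenes are active, p53 is released and switches on genes that stop the cell cycle, such as Cdkn1a, and genes that lead to apoptosis, such as Bax. The CDK inhibitors form 2 families. The CIP/KIP proteins p21 (Cdkn1a) and p27 (Cdkn1b) bind cyclin-CDK complexes, and the INK4 proteins (Cdkn2a, Cdkn2b, Cdkn2c and Cdkn2d) bind CDK4 and CDK6 and so keep RB proteins active. Cdkn2a also encodes ARF, which blocks Mdm2. In cultured MEFs the Cdkn2a locus and the p53 pathway are known for limiting proliferation during passage, and both are known barriers to reprogramming. Mouse ESCs are known for a short G1 phase and little inhibition of their CDKs.

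Many p53 targets are recognised through elements built of paired 10-base consensus units. A single such unit, here called the p53 decamer, is only a part of an element. The decamer was looked for on both strands in the RefSeq promoters of GRCm38.p6, from 250 bases before to 50 after each annotated start, and it was found in 6 of the 13 promoters of these genes, which belonged to 6 of the 10 genes. Of all 32851 promoters of the same 300 bases, 8.4% held a match. The matches are shown in capitals, with 25 bases on either side, on the strand of the gene. They show which of the genes carry this decamer close to a start. They are positions of letters and not measured binding. Cdkn1a had 2 decamers, at a start that lies 2790 bases before its main start, and each other gene with a match had 1. The 6 stretches were chr11:69580259-69580318 (+) for Trp53, chr10:117710910-117710969 (-) for Mdm2, chr11:40755437-40755496 (-) for Ccng1, chr7:45467065-45467124 (-) for Bax, chr17:29090881-29090962 (+) for Cdkn1a and chr9:21291277-21291336 (-) for Cdkn2d.
Trp53: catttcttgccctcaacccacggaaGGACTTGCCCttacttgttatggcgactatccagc
Mdm2: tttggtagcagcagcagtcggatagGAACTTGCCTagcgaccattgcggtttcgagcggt
Ccng1: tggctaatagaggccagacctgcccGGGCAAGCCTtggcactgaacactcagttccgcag
Bax: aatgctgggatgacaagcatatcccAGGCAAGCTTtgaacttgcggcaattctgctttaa
Cdkn1a: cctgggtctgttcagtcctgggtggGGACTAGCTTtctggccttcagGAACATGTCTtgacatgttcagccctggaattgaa
Cdkn2d: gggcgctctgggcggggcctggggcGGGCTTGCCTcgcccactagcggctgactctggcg

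Other promoter motifs were also searched on both strands. The GC box GGGCGG, bound by Sp1, was in 9 of the 13 promoters and in 35.7% of all promoters. The CCAAT box, spelled CCAAT, was in 7 of the 13 and in 37.4% of all, and the TATA box TATAAA was in 1 of the 13 and in 13.6% of all. Each motif was counted independently, and matches of different motifs may overlap.

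The libraries held 5149312 counts (OG2 MEF), 4590619 (ICR MEF) and 1717838 (labelled ESC), so that 3 counts, taken as the floor, correspond to 0.583, 0.654 and 1.75 counts per 1000000 gene counts (CPM). Single-library values are given in CPM of all gene counts with Wilson 95% intervals, which cover counting error only. For comparisons the CPM were also scaled with TMM factors, which move the third library by 0.45 log2 units against the MEFs, and written as log2(CPM + 1). This scale understates the change of genes with few counts. Markers were read first to check the labels. Of 12 pluripotency genes, 6 (Zfp42, Esrrb, Dppa5a, Lin28a, Utf1 and Dppa3) were at 0 counts in the library labelled ESC, while Pou5f1 had 71 counts and Nanog 51, against at most 2 in a MEF library. It is therefore named by its label throughout. The 12 genes summed to 1.75, 2.61 and 105 CPM in OG2 MEF, ICR MEF and labelled ESC. In the same order, 11 fibroblast markers summed to 37200, 40100 and 4320 CPM (10 were called lower and S100a4 higher), 5 epithelial markers to 31.7, 33.5 and 188, 4 endothelial markers to 12.6, 12.6 and 65.8, 5 blood markers to 15.3, 6.32 and 32.6, and 3 muscle markers to 98.5, 56.2 and 12.2. Of the endothelial markers Cdh5 and Kdr were at 0 in the third library, of the blood markers Ptprc, Adgre1 and Hbb-bs, and of the muscle markers Myod1 and Myog. The part of these other cells in the differences described here was not tested. In bulk RNA, fewer cells of a type and less RNA per cell cannot be told apart.

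The 10 genes split by direction. Against the MEFs, Trp53, Mdm2, Ccng1, Cdkn1b, Cdkn2b and Cdkn2c were lower in the library labelled ESC, Bax was higher, Cdkn1a was higher by 0.44 log2 units on the TMM scale but not with library totals (-0.01), and Cdkn2a and Cdkn2d did not pass the test. By edgeR's quasi-likelihood test, with adjusted p under 0.05 over 12718 genes, 6 of the 10 were called lower and 2 higher. Of all genes tested, 39.1% were called lower and 29.0% higher. At least 1 log2 unit below both MEF libraries lay 5 of the 10, and 1 lay as far above both. Over the 17810 genes with a count these shares were 25.9% and 21.9%, or 4617 genes below and 3900 above. That split was 3478 below and 4967 above with a GC-content correction, 7692 and 1624 with the deposited TPM, and 5634 and 2983 with library totals in place of TMM. The median log2 difference was -1.72 over the 10 genes and -0.41 over all genes tested. The spread in the edgeR test came from the MEF pair alone (1 residual degree of freedom), with the library labelled ESC assumed to vary alike. The side of labelled ESC has no replicate check.

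**Figure D1:**
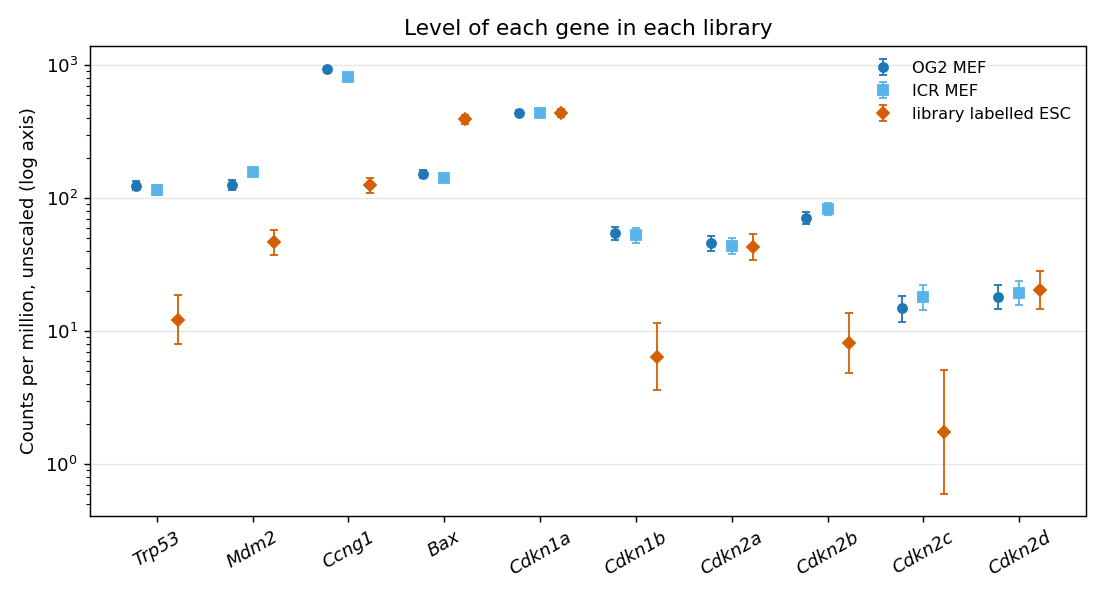
Level of each gene in CPM of all gene counts (log axis), before TMM scaling, in OG2 MEF (circles), ICR MEF (squares) and the library labelled ESC (diamonds). Bars are Wilson 95% intervals of the count. The MEF symbols lie close together for every gene, whereas the diamonds lie far below them for Trp53, Ccng1, Cdkn1b, Cdkn2b and Cdkn2c, above them for Bax and level with them for Cdkn1a, Cdkn2a and Cdkn2d.

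Trp53 (ENSMUSG00000059552) is on the plus strand of chromosome 11, from 69580359 to 69591873. It had 638 counts in OG2 MEF, 529 in ICR MEF and 21 in the library labelled ESC, which are 124 CPM (115 to 134), 115 (106 to 125) and 12.2 (8.0 to 18.7). Both MEF libraries were high and the third was far outside their intervals. With TMM scaling the MEF level was 7.17-fold that of labelled ESC (exact 95% interval from the counts 4.67 to 11.6), or 6.76 ± 0.10 (SD, n = 2) against 4.01 in log2(CPM + 1), with an adjusted p from edgeR of 1.37e-05. Processed copies of Trp53 exist in the mouse genome, and 3.95% of the 50-base stretches of its transcripts also occur in other genes, among them Trp53-ps. Reads from such stretches can be divided between the copies, although all of its expected counts came out whole.

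Mdm2 (ENSMUSG00000020184), the ligase that turns p53 over, lies at 117688875 to 117710758 on the minus strand of chromosome 10. Its counts were 646, 720 and 80, or 125 CPM (116 to 136), 157 (146 to 169) and 46.6 (37.4 to 58) in OG2 MEF, ICR MEF and labelled ESC. Mdm2 was thus also below both MEF libraries, by less than Trp53. The MEF level was 2.2-fold that of labelled ESC (1.76 to 2.8), and the log2 difference of -1.13 had an adjusted p from edgeR of 1.22e-03. Because OG2 MEF was the lower of the MEF libraries, Mdm2 was not 1 log2 unit below both. Corrected for GC content, its difference was -0.16, against a median shift of all genes of 0.42.

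The balance between the transcripts of the regulator and of its substrate was read in TPM, a level per transcript length. Trp53 had 141.34, 140.37 and 6.47 TPM in OG2 MEF, ICR MEF and labelled ESC, and Mdm2 had 97.18, 109.19 and 15.43 TPM. There were 0.688 and 0.778 transcripts of Mdm2 for each transcript of Trp53 in the MEF libraries and 2.38 in labelled ESC. The order of the pair in TPM was therefore turned around in labelled ESC. That value rests on 21 counts of Trp53 and 80 of Mdm2 in 1 library, and the ratio was not tested.

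Of the p53 targets, Ccng1 and Bax lay on opposite sides. Ccng1 (ENSMUSG00000020326; chromosome 11, 40748552 to 40755311, minus strand) encodes cyclin G1, which recruits a phosphatase to Mdm2. It had 4819, 3753 and 214 counts in OG2 MEF, ICR MEF and labelled ESC, or 936 CPM (910 to 963), 818 (792 to 844) and 125 (109 to 142). It was the gene of the 10 with the highest CPM in both MEF libraries. The MEF level was 5.17-fold higher (4.51 to 5.95), with a log2 difference of -2.35 and an adjusted p from edgeR of 2.29e-05. After correction for GC content and length the difference was -1.15.

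Bax (ENSMUSG00000003873; chromosome 7, 45461697 to 45466898, minus strand) encodes a protein that opens the outer membrane of mitochondria in apoptosis. Its 779, 652 and 673 counts correspond to 151 CPM (141 to 162), 142 (132 to 153) and 392 (363 to 423). It was the 1 gene of the 10 that rose past 1 log2 unit above both MEF libraries. The level in labelled ESC was 3.64-fold that of MEFs (3.32 to 4.0), a log2 difference of 1.86 with an adjusted p from edgeR of 1.61e-05. The size of this rise depended on the processing, and the log2 difference was 0.28 after correction for GC content and length and 0.26 in the deposited TPM. Bax had the highest GC content (63.5%) of the 10 genes. It overlaps exons of the gene model Gm45808 on the same strand, with which it shares 8.51% of its 50-base stretches.

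Cdkn1a (ENSMUSG00000023067; chromosome 17, 29090976 to 29100727, plus strand) encodes p21, the CDK inhibitor best known as a p53 target. Its levels before scaling were almost the same in the 3 libraries, with 2264, 2001 and 748 counts, or 440 CPM (422 to 458), 436 (417 to 455) and 435 (405 to 468). The ratio of labelled ESC to MEFs was 0.994 (0.919 to 1.08) with library totals and 1.36 (1.26 to 1.47) with TMM. On the TMM scale the log2 difference was 0.44 with an adjusted p from edgeR of 4.62e-02, and with library totals it was -0.01 with an adjusted p of 0.966. The sign of Cdkn1a also turned with full-quantile normalization (-0.07), with the correction for GC content and length (-0.02) and in TPM (-1.33). The direction of Cdkn1a thus changed with the scaling. An antisense gene model, AC167363.2, overlaps its exons, and reads of both strands cannot be told apart without a stated strand setting.

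The targets were set against Trp53 in TPM, since levels of different genes can be compared per length alone. Ccng1 had 3.64 and 3.33 transcripts for each of Trp53 in OG2 and ICR MEF and 4.99 in labelled ESC. For Cdkn1a the ratios were 3.74, 3.97 and 33.2, and for Bax they were 2.83, 2.75 and 72.8. These ratios follow in part from the choice of Trp53 as denominator, since it had the lowest difference of the 10 genes, and those of labelled ESC rest on its 21 counts. With full-quantile normalization Ccng1 (-2.73) was lower than Trp53 (-2.52), so no order of Ccng1 against Trp53 is read from them.

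**Figure D2:**
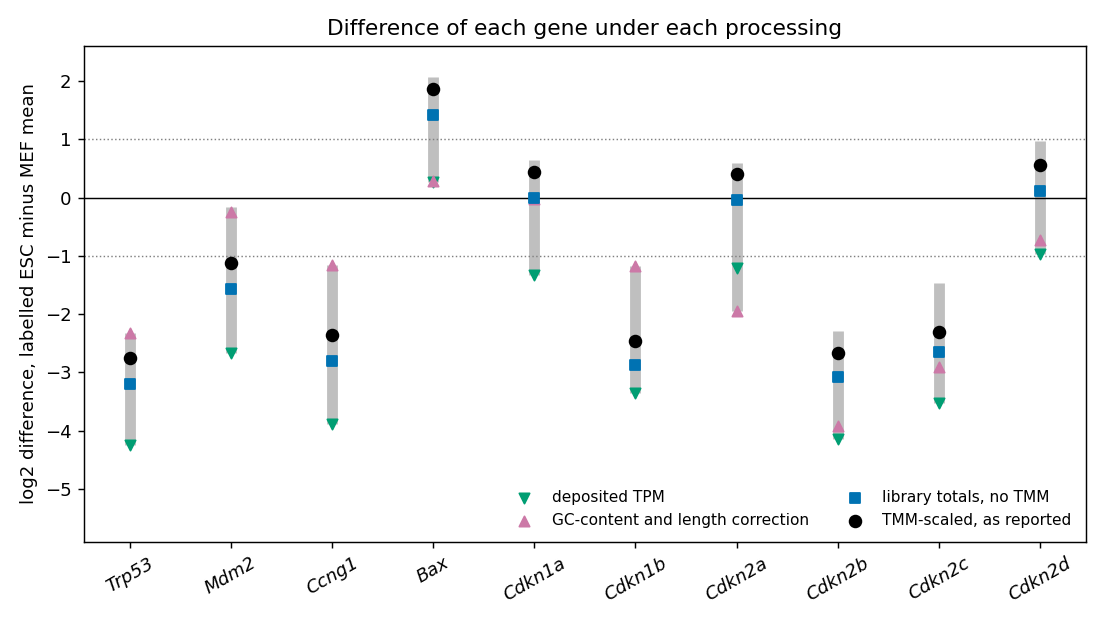
Difference of each gene between labelled ESC and the MEF mean in log2 units (y axis), as reported (black circles) and in the deposited TPM, after correction for GC content and length, and with library totals in place of TMM. Grey bars span the reported value and its 11 alternatives, and dotted lines mark 1 log2 unit. The bars of Trp53, Cdkn1b, Cdkn2b, Cdkn2c and Ccng1 stay below -1, the bar of Bax reaches down to 0.26, and those of Cdkn1a, Cdkn2a and Cdkn2d cross 0.

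Within the CIP/KIP family the levels of p21 and p27 diverged. Cdkn1b (ENSMUSG00000003031; chromosome 6, 134920401 to 134925513, plus strand), which encodes p27, had 279, 241 and 11 counts in OG2 MEF, ICR MEF and labelled ESC. These are 54.2 CPM (48.2 to 60.9), 52.5 (46.3 to 59.6) and 6.40 (3.58 to 11.5). Cdkn1b was low in labelled ESC alone, with no overlap of the intervals. The fold was 6.1 (3.38 to 12.3), and the log2 difference of -2.46 had an adjusted p from edgeR of 7.20e-05. Against 1 transcript of Cdkn1b there were 15.1 and 16.4 of Cdkn1a in the MEF libraries and 86.7 in labelled ESC. The other member of the family, Cdkn1c (p57), is not among the 10 genes and had 442, 281 and 23 counts, with a log2 difference of -1.92 and an adjusted p from edgeR of 7.44e-04.

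The INK4 family held a pair of genes that were lower and a pair that did not pass the test. Cdkn2b (ENSMUSG00000073802; chromosome 4, 89306299 to 89311039, minus strand) encodes p15, known as a target of TGF-beta signalling. It had 364, 378 and 14 counts, or 70.7 CPM (63.8 to 78.3), 82.3 (74.4 to 91.1) and 8.15 (4.85 to 13.7). MEFs were 6.84-fold higher (4.05 to 12.6), with a log2 difference of -2.66 and an adjusted p from edgeR of 3.49e-05. Of the 10 genes, Trp53 and Cdkn2b had the lowest log2 differences.

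Cdkn2c (ENSMUSG00000028551; chromosome 4, 109660876 to 109667189, minus strand) encodes p18. It was the least abundant of the 10 in each library, with 76, 82 and 3 counts, or 14.8 CPM (11.8 to 18.5), 17.9 (14.4 to 22.2) and 1.75 (0.594 to 5.14). In labelled ESC Cdkn2c was at the floor. The ratio of MEFs to labelled ESC was 6.8 with a counting interval of 2.28 to 33.3, and the log2 difference was -2.31. Its adjusted p was 2.38e-03 with edgeR but 7.28e-02 with DESeq2.

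Cdkn2a (ENSMUSG00000044303) lies next to Cdkn2b, 11645 bases away, at 89274471 to 89294653 on the minus strand of chromosome 4. It had 235, 199 and 74 counts, or 45.6 CPM (40.2 to 51.9), 43.3 (37.7 to 49.8) and 43.1 (34.3 to 54.1), with overlapping intervals in the 3 libraries. The log2 difference was 0.40, with an adjusted p from edgeR of 9.79e-02, and the ratio of labelled ESC to MEFs was 0.967 (0.745 to 1.24) with library totals and 1.32 (1.02 to 1.69) with TMM. The sign of Cdkn2a turned in 4 of 11 alternatives, with log2 differences of -0.05 with library totals, -0.30 after GC correction, -1.95 after correction for GC content and length and -1.21 in TPM. The neighbours on chromosome 4 thus had different differences, of which 1 was called and the other was not, and the change of Cdkn2b relative to Cdkn2a was not tested. The ratio of Cdkn2a to Cdkn2b in TPM was 1.12 and 0.912 in the MEF libraries and 8.88 in labelled ESC. Cdkn2a encodes p16INK4A and ARF from 2 first exons, whose transcripts start 12461 bases apart, and the gene totals do not separate them.

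Cdkn2d (ENSMUSG00000096472; chromosome 9, 21288410 to 21291407, minus strand), which encodes p19INK4D, had 93, 89 and 35 counts. These are 18.1 CPM (14.7 to 22.1), 19.4 (15.8 to 23.9) and 20.4 (14.7 to 28.3), which overlap. The log2 difference of 0.55 had an adjusted p from edgeR of 0.114, and the ratio was 1.09 (0.737 to 1.57) with library totals and 1.49 (1.01 to 2.15) with TMM. The log2 difference of Cdkn2d was -0.72 after correction for GC content and length and -0.97 in TPM, so that its direction changed with the scaling.

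The makeup of the INK4 family could be read in TPM. The 4 genes summed to 273 and 298 TPM in OG2 and ICR MEF and to 72.6 in labelled ESC, and in unscaled CPM to 149, 163 and 73.3, a smaller difference. Cdkn2a and Cdkn2b shared most of the sum in MEFs, with 43.7% and 39.3% for Cdkn2a and 39.0% and 43.1% for Cdkn2b. In labelled ESC the share of Cdkn2a was 69.6% and that of Cdkn2b 7.84%. Cdkn2d took 11.1%, 11.3% and 21.7%, and Cdkn2c 6.20%, 6.37% and 0.895%. The CIP/KIP pair of Cdkn1a and Cdkn1b summed to 564, 591 and 217 TPM but to 494, 488 and 442 CPM, so that the pair was nearly level in CPM and lower in labelled ESC in TPM. The median over all genes also moved by -1.11 log2 units in TPM, so no change is read from the TPM sums alone.

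Ordered by TPM, the MEFs were led by Cdkn1a (543 ± 19.4 TPM, SD, n = 2), Ccng1 (491 ± 32.7) and Bax (393 ± 10.4). Trp53 (141 ± 0.686) came next, above Cdkn2a (118 ± 1.68), Cdkn2b (117 ± 15.4) and Mdm2 (103 ± 8.49). Cdkn1b (34.5 ± 0.856), Cdkn2d (31.9 ± 2.33) and Cdkn2c (17.9 ± 1.44) were the lowest. Cdkn2a and Cdkn2b changed places between the MEF libraries. Within both MEF libraries Cdkn2b lay above Mdm2 and Cdkn1b above Cdkn2d. Between the libraries the ranges of Cdkn2b and Mdm2 overlapped, and Cdkn1b and Cdkn2d did not differ beyond their SDs. In labelled ESC, Bax (471.02 TPM) came first and Cdkn1a (215.01) second. They were followed by Cdkn2a (50.50), Ccng1 (32.26), Cdkn2d (15.76), Mdm2 (15.43), Trp53 (6.47), Cdkn2b (5.69), Cdkn1b (2.48) and Cdkn2c (0.65). With 1 library, the near values of Cdkn2d and Mdm2, and of Trp53 and Cdkn2b, cannot be ordered. Over all genes the median TPM difference was 1.11 log2 units below that of TMM-scaled CPM, so that TPM is used here for order within a library. TPM values set across libraries are given beside CPM, and no change is read from them alone.

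**Figure D3:**
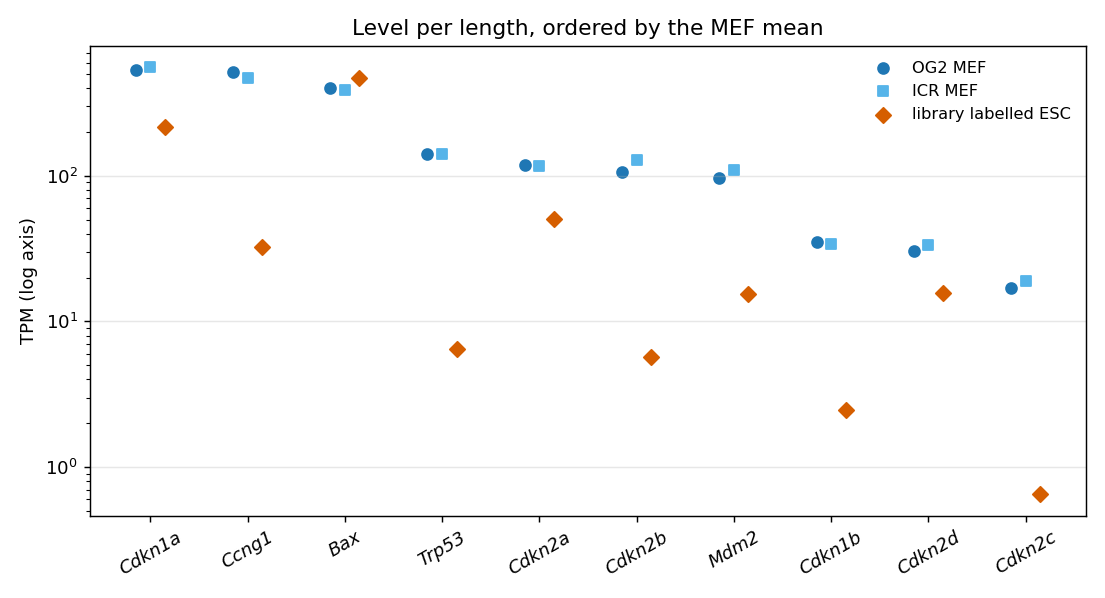
Level of each gene per length, in TPM (log axis), ordered from left to right by the MEF mean, in OG2 MEF (circles), ICR MEF (squares) and labelled ESC (diamonds). The MEF symbols fall from 543 TPM for Cdkn1a to 17.9 for Cdkn2c, whereas the diamonds do not follow that order and are highest for Bax.

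The strains differed little in these genes. None of the 10 was 1 log2 unit apart between OG2 and ICR MEF, as were 2.76% of all genes with a count. With so small a share over all genes, nothing particular to these 10 is read from that. The log2 difference of OG2 minus ICR ran from -0.28 for Mdm2 to 0.24 for Ccng1, against an SD of 0.41 over all genes. For Mdm2 the ratio of OG2 to ICR was 0.823 (0.739 to 0.917) and for Ccng1 it was 1.18 (1.13 to 1.23), and these were the genes whose counting interval left out 1. The other 8 ratios ran from 0.85 for Cdkn2c to 1.11 for Trp53. There was 1 library per strain, so that strain, embryo and library cannot be told apart.

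The lengths that RSEM weights by isoform differed between the libraries for some of the genes. For Cdkn1b the weighted length was 3004.98 and 3131.59 bases in OG2 and ICR MEF and 2393.0 in labelled ESC. Its annotated transcripts are 2393 and 4552 bases long, which puts the longer one at 28.3%, 34.2% and 0.0% of the transcripts. The last value rests on 11 counts. For Cdkn1a the weighted lengths were 1698.27, 1663.22 and 1910.0 bases, and for Cdkn2c 1773.53, 1966.87 and 2471.0. The length of Cdkn2c in labelled ESC rests on 3 counts. For Ccng1, Bax, Cdkn2b and Cdkn2d, 1 length was given in all 3 libraries.

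The difference between labelled ESC and MEFs moved with base composition over all genes. The median log2 difference was read over 12660 genes with at least 10 counts in 1 library and an annotated transcript. It was -0.87 below 42% GC, -0.97 from 42% to 46% and -0.71 from 46% to 50%. At higher GC content it was -0.28 from 50% to 54%, 0.24 from 54% to 58% and 0.58 above 58%. Over the 10 genes, Spearman's rho of the log2 difference was 0.49 with GC content and -0.58 with transcript length, and over all genes 0.21 and -0.30. The genes share their libraries, and these values are a description. GC content and length were taken from the longest annotated transcript of each gene, and other isoforms were not read. For Trp53 that transcript has 3275 bases, against weighted lengths of 1782.38, 1736.02 and 1792.27 in OG2 MEF, ICR MEF and labelled ESC. Mdm2 (46.2% GC), Cdkn1a (54.4%), Cdkn2d (55.8%), Cdkn2a (60.2%) and Bax (63.5%) lay within the middle 50% of genes of like GC content. Trp53 (53.3%, at -2.76) and Cdkn2b (55.9%, at -2.66) lay below the lower quartiles of their bins, -1.64 and -1.13. Cdkn2c (58%, at -2.31) was also below the lower quartile of either adjoining bin. Trp53 stayed between -4.25 and -2.32 under all 11 alternatives, Cdkn2b between -4.14 and -2.29, Cdkn2c between -3.52 and -1.46, and Cdkn1b between -3.35 and -1.18. The part of base composition in these differences was not tested beyond the corrections named here.

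**Figure D4:**
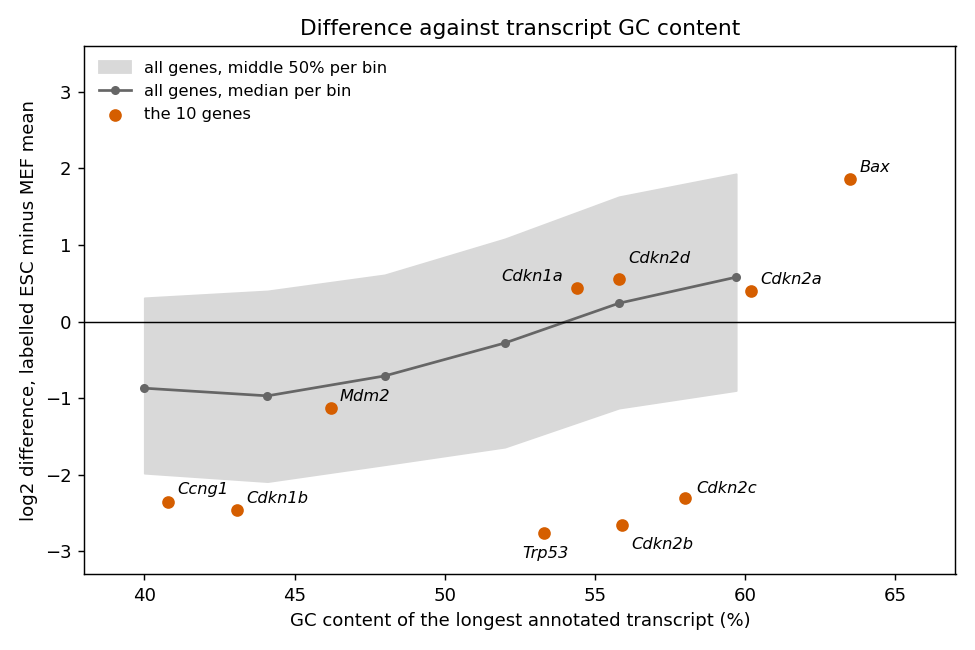
Difference between labelled ESC and the MEF mean in log2 units (y axis) against GC content of the longest annotated transcript in percent (x axis). The grey line and band are the median and the middle 50% of 12660 genes in 6 GC bins, drawn at each bin's median GC content, and orange points are the 10 genes. Trp53, Cdkn2b and Cdkn2c lie well below the band, Ccng1 and Cdkn1b just below it, and Bax lies to the right of the last bin median.

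Other genes of the pathway were read from lists, in the same test. Of 26 further p53 targets, 13 were called lower and 6 higher, with a median log2 difference of -0.61. Ppm1d, a phosphatase that damps the p53 response, had 64, 88 and 93 counts in OG2 MEF, ICR MEF and labelled ESC and a log2 difference of 2.18 (adjusted p from edgeR 1.21e-04). Pidd1, which builds a platform for caspase-2, had 77, 94 and 91 counts and a difference of 1.98. Polk, a DNA polymerase that copies past lesions, had 159, 147 and 0 counts, and Gadd45a, which acts in growth arrest, had 135, 120 and 1. Over all genes tested the shares were 39.1% lower and 29.0% higher, and nothing particular to p53 targets is read from the list.

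Of 15 tested regulators and relatives of p53, 11 were called lower and 4 were not called, with a median of -0.86. Trp53bp1, a binding partner of p53 in DNA repair, had 380, 359 and 6 counts, and the acetyltransferase Ep300 had 481, 466 and 12. Npm1, which binds ARF in the nucleolus, was the most abundant of the list, with 3562, 4062 and 570 counts and a log2 difference of -0.78. The 11 calls had the direction of Trp53 and Mdm2, and over all genes tested 39.1% were called lower. The difference over all genes also moved with transcript length, whose part in this list was not tested.

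A list of 15 genes held 12 CDKs and cyclins, which the inhibitors act on, and their partners Skp2, Cks1b and Pcna. Of the 15, 4 were called higher (Cdk4, Cdk6, Ccnd1 and Pcna) and 5 lower (Cdk1, Ccnd2, Ccnb1, Skp2 and Cks1b), with a median of -0.06. The shares over all genes tested were 29.0% higher and 39.1% lower. Ccnd1 and Ccnd2, D-type cyclins that activate the kinases INK4 proteins bind, were called in opposite directions. Ccnd1 had 2392, 2217 and 2301 counts and a log2 difference of 1.95 (adjusted p from edgeR 1.69e-05), and Ccnd2 had 5598, 4872 and 211 counts and -2.67 (9.44e-06). Cdk6, a kinase bound by INK4 proteins, had 99, 66 and 47 counts and was called higher by 1.12, and Cdk1, the mitotic kinase, had 478, 412 and 31 counts and fell by 1.84 log2 units.

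Downstream of the CDKs, 7 of 13 RB and E2F genes were called lower and 3 higher, with a median of -1.17. Among all genes tested 39.1% were called lower and 29.0% higher. The activator E2Fs did not move together. E2f1 and E2f2 had 215, 185 and 177 and 11, 11 and 57 counts and were called higher, with log2 differences of 1.75 and 3.78. E2f3, also an activator and named after its values were seen, had 207, 175 and 10 counts and was called lower, at -2.15 (adjusted p from edgeR 2.84e-04). Tfdp1, which pairs with E2Fs, had 577, 508 and 5 counts, and the RB relative Rbl2 had 176, 128 and 2.

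Of 17 regulators of the Cdkn2a locus, 5 were called higher and 7 lower, with a median of -0.14. All genes tested had 29.0% called higher and 39.1% lower. Repressors of the locus were called in both directions. Tbx2 and Tbx3 had 68, 64 and 69 and 96, 79 and 74 counts, with log2 differences of 1.93 and 1.66, and Id1, an inhibitor of Ets factors, had 199, 197 and 123 counts and 1.24. The Polycomb genes Bmi1 (-1.20), Ring1 (-1.89), Rnf2 (-1.68) and Suz12 (-2.03), named after their values were seen, were called lower. Of the other Polycomb genes of the list, Pcgf2 (0.79) was called higher. Ezh2 (0.38), Eed (-0.14), Cbx2 (0.76), Cbx7 (0.68) and Cbx8 (-0.31) were not called. Ets1, an activator of the locus, had 302, 312 and 8 counts and -3.10, and Jun had 458, 451 and 15 counts and -2.86. Cdkn2a itself, as given above, did not pass the test. Of 17 tested genes associated with senescence, 11 were called lower and 3 higher, with a median of -1.04, beside the same 39.1% and 29.0% of all genes. The senescence list included Igfbp7, a secreted protein that fibroblasts make (2029, 2273 and 3 counts). The chromatin proteins Hmga1 (1714, 1550 and 1179 counts, 1.48) and Hmgb1 (1838, 2122 and 904 counts, 0.82) were called higher.

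**Figure D5:**
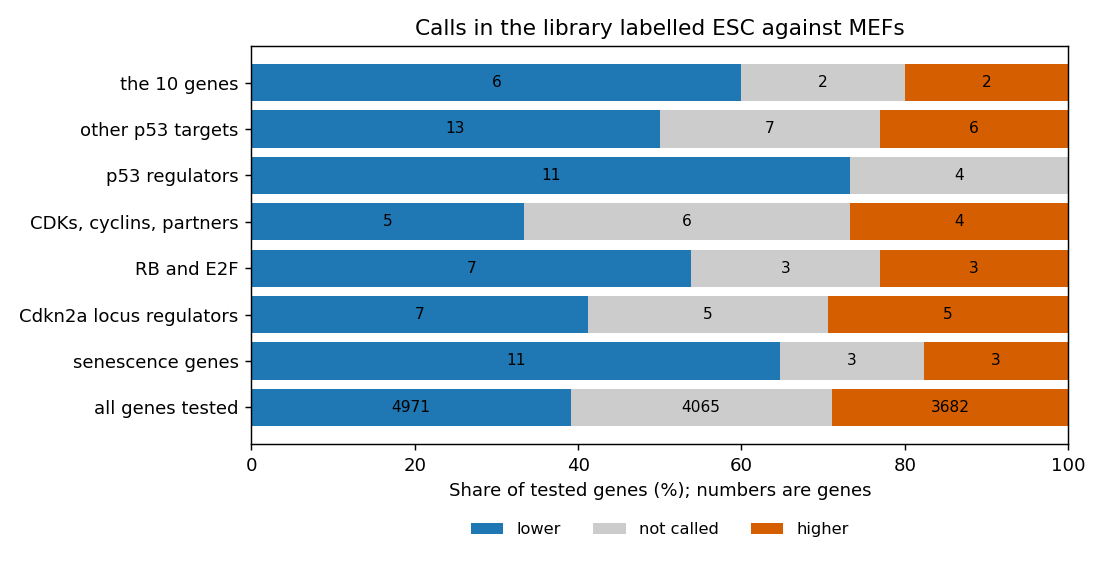
Share of tested genes in percent (x axis) that edgeR called lower (blue), did not call (grey) or called higher (orange) in labelled ESC against MEFs, for the 10 genes, 6 further lists and all 12718 genes tested. Numbers in the bars are genes. The 10 genes had 6 lower and 2 higher, and the p53 regulators had 11 lower and 4 not called.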

How the data were processed

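The authors aligned RNA-seq reads to transcripts with Bowtie and quantified them with RSEM, with mm10 as the build in the submitters' processing notes. The deposited tables hold, per gene and library, an expected count (reads as estimated by RSEM) and a TPM. The authors' weighted transcript length was also read, and FPKM was not used. Whether the deposited values precede the GC-content normalization of the study's methods is not stated in them, and they were taken as preceding it. No column came from samples outside the series.

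Expected counts were rounded (29 of 30 values of the 10 genes were whole) and scaled with TMM factors of 1.094, 1.126 and 0.812 from edgeR 4.0.16 (R 4.3.3). Values are log2(CPM + 1). The test was edgeR's quasi-likelihood test of labelled ESC against both MEFs, with edgeR's filter on low counts and Benjamini-Hochberg adjustment over 12718 genes. The test was also run on simulated counts, in which few genes changed and all libraries varied alike. Those assumptions were therefore not checked. Ratios of counts have exact intervals. Genes were placed with GENCODE M21 (GRCm38), and 98.3% of identifiers had a symbol. DESeq2 1.42.0, limma 3.58.1, scipy 1.17.1, pandas 2.3.3 and numpy 2.4.6 under Python 3.11.15 served for alternatives and tables. Alternatives changed the pseudocount, the scaling, the filter, the corrections for GC content and length, the unit and the MEF libraries kept.

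The 10 genes and the lists were chosen with earlier results of these data known. Named genes were all 10, and from each list the most abundant gene in MEFs and in labelled ESC, and up to 2 called rises and 2 called falls with the largest difference. For each of the 10, the gene nearest in profile was also named. Marker lists are given as sums, and 1 gene of the senescence list is not reported here. Nothing in the labels says that the MEF libraries came from separate cultures beyond their strain, so the p-values measure the spread between these libraries.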

Additional observations from a re-analysis of the deposited data

How the results depend on the processing

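No paired analysis was possible because labelled ESC, with 1 library, shares fewer than 2 replicate numbers with the MEFs. Leaving out 1 MEF library was not run in edgeR, since both arms would then hold 1 sample, and a comparison of protein sequences was not run. Trp53, Cdkn1b, Cdkn2b and Cdkn2c stayed at least 1 log2 unit below both MEF libraries under all 11 alternatives. Of the 11, the filter at 10 counts in 1 library only drops genes. It leaves the values of these 10 genes as reported, so it does not check them. The difference of Cdkn1a was -0.07 with full-quantile normalization, -0.02 with the correction for GC content and length, -1.33 in TPM and -0.01 with library totals, in place of 0.44. Cdkn2a passed the edgeR threshold with median-of-ratios factors (0.60, adjusted p 2.85e-02) and with TMM factors set after the filter (0.57, 2.84e-02), Cdkn2d with median-of-ratios factors (0.77, 4.13e-02), while after correction for GC content and length and in TPM the differences were -1.95 and -1.21 for Cdkn2a and -0.72 and -0.97 for Cdkn2d. Cdkn2c did not pass with DESeq2 (-2.57, 7.28e-02). The cause was not tested. Called higher were 4 of the 10 genes with median-of-ratios factors and 1 with library totals, against 2, while the same calls over all genes numbered 4013 and 2918, against 3682. None of the 10 was 1 log2 unit above both MEFs after the correction for GC content and length (0) or in TPM (0), against 1, and 8 were below in TPM, against 5.

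Of the further listed genes, 22 after GC correction and 1 in TPM lay 1 log2 unit above both MEFs, against 14, and 76 in TPM lay below, against 44. DESeq2 called 32 of them lower, against 55, and 2926 of all genes, against 4971. In TPM 1624 of all genes lay above and 7692 below, against 3900 and 4617. Genes 1 log2 unit apart between the MEFs numbered 3608 with a pseudocount of 0.1, 103 with 5 and 1107 in TPM, against 492. The median of all genes moved by 0.17 log2 units with median-of-ratios factors, 0.20 with full-quantile normalization, 0.13 with a pseudocount of 5, 0.43 with the GC and length correction and -0.40 with library totals, so that changes of this size depend on the scaling. Without replicate 1 or 2 of the MEFs, the genes below both numbered 5128 and 5026 and those above 4225 and 4257, and 6 and 5 of the 10 genes were below. Library totals and TMM set after the filter were chosen after seeing the data. The depth of labelled ESC limits Cdkn2c (3 counts), Cdkn1b (11), Cdkn2b (14) and Trp53 (21).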

Other observations

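For each of the 10 genes the gene with the nearest profile over the 3 libraries was looked up among 8336 genes with at least 10 counts in each library, as the distance between log2(CPM + 1) values centred on their mean. With 3 libraries many genes have like profiles, and the values are a description. The nearest were Tln1 for Trp53 (0.013 log2 units), 2610008E11Rik for Mdm2 (0.013), Scarf2 for Ccng1 (0.0094), Lias for Bax (0.0083), Pcolce for Cdkn1a (0.0082), Kpna6 for Cdkn1b (0.011), Map1lc3b for Cdkn2a (0.014), Glis2 for Cdkn2b (0.013) and Ftsj3 for Cdkn2d (0.011). Between 30 and 170 genes lay within 0.1 log2 units of each. Cdkn2c was left out because it had 3 counts in labelled ESC.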
